A study of Mus musculus with 4 samples.

Results

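The miR-15/16 family was examined through its 6 members on a mouse miRNA array, mmu-miR-15a, mmu-miR-15b, mmu-miR-16, mmu-miR-195, mmu-miR-322 and mmu-miR-497 (written without the species prefix from here on), out of 567 mouse miRNA names that the array carried. Members were taken by name alone, not by any measured value, as the 6 names whose probes were designed to them. The members and the related lists below were nevertheless chosen with earlier results of these data known. The arrays, of 1 colour, came from B104 cells, a clonal neuroblastoma line that the labels give as mouse, although the source cited for it describes rat lines. In the control group, 2 arrays held RNA of mock-transfected cells. In the knockdown group, 2 arrays held RNA of cells that had received 20 nM of a duplex siRNA directed at RBM3. Both groups were harvested after 48 h. The labels number replicates 1 and 2 in each group and do not say whether they were separate cultures, so p-values measure only the spread between these arrays. All cells were of 1 clonal line, and no array of a scrambled siRNA was analysed here. Levels of the RBM3 transcript itself are not read by a miRNA array.

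The miR-15/16 family is known for restraining the cell cycle. Its members share a seed, the stretch near the 5′ end that pairs with target mRNAs, and through it they repress cyclins D1 and E1, CDK6, and the survival factor BCL2. Loss of the human MIR15A and MIR16-1 locus is a frequent lesion in chronic lymphocytic leukaemia. In the mouse heart the family rises after birth, when muscle cells leave the cell cycle. The members are encoded at separate loci, some of them side by side, and their primary transcripts are cut to hairpins by Drosha and then to mature miRNAs by Dicer. RBM3 is an RNA-binding protein induced by mild cold, and the study asked how its loss changed the mature miRNA profile.

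The mature sequences are shown because the shared seed and the unlike remainder bear on which signals can mix on the array. All 6 names were matched to RefSeq entries of build GRCm38.p6, in which miR-195 and miR-497 are now named miR-195a-5p and miR-497a-5p. Each is written 5′ to 3′ with the seed, bases 2 to 8, in capitals.
miR-15a: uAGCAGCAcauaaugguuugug
miR-15b: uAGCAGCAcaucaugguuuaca
miR-16: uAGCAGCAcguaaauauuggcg
miR-195: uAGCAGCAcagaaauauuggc
miR-497: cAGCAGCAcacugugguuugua
miR-322: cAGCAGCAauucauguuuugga
miR-503: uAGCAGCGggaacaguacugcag
miR-107: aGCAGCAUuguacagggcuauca
The 6 members carried 1 seed. Among the 1679 mature names of the table, 10 shared it, and the 4 others were miR-195b, miR-6342, miR-6353 and miR-6419. miR-503, which is encoded beside miR-322, differs from that seed in its last base, and miR-107 carries the same letters shifted by a base. Outside the seed the members differed more. Without gaps, miR-16 and miR-195 were identical at 19 of 21 positions and miR-15a and miR-15b at 18 of 22. miR-322 was identical to miR-16 at only 12 of 22 positions and to miR-15b at 16 of 22. How much the closest pairs share signal through cross-hybridization was not tested.

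The members come from 4 places in the genome, in coordinates of GRCm38.p6. Mature miR-15a lies at chr14:61632075-61632096 on the minus strand, with one copy of miR-16 at chr14:61631936-61631957. The hairpin of that copy, Mir16-1, is spanned by Dleu2, a long non-coding RNA gene. miR-15b lies at chr3:69009775-69009796 on the plus strand and the second copy of miR-16 at chr3:69009918-69009939. Both of their hairpins are spanned by Smc4, which encodes a condensin subunit, and are separated by 66 bases. miR-497 at chr11:70234730-70234751 and miR-195 at chr11:70235062-70235082 form a pair whose hairpins are separated by 241 bases. miR-322, the mouse counterpart of human miR-424, lies at chrX:53054306-53054327 on the minus strand within the non-coding gene C430049B03Rik, its hairpin 200 bases from that of miR-503. Both copies give the same mature miR-16, so its signal cannot be assigned to either locus.

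Every array lay on 1 slide, and no spot was saturated. Detection above background was recorded for 177 and 190 mouse miRNAs in control cells and for 147 and 162 in knockdown cells, 214 names on at least 1 array and 130 on all 4. The knockdown arrays were dimmer as a whole. The median signal of the 130 miRNAs was 375 and 421 in control cells, and 94.2 and 92.4 after knockdown. The 6 positive control probe names detected on every array were also dimmer after knockdown, by a log2 change of -0.567 to -1.62. Since the arrays hold RNA of whole cultures, fewer cells of a type and less RNA per cell cannot be told apart. The listed markers bore out a neural identity of the cells only in part. Of 6 neural miRNAs 3 were detected on every array, miR-9 among them, while miR-124 and miR-137 were not detected. The summed signal of the neural list was 876 and 985 in control and 170 and 173 in knockdown cells, below that of the muscle list. The 4 listed miRNAs of muscle, miR-206, miR-133b, miR-133a and miR-1, were all detected on every array, with a summed signal of 10192 and 12735 in control and 4441 and 4591 in knockdown cells, and their part in the results below was not tested. None of the 6 blood, 1 liver and 2 endothelial miRNAs listed was detected on any array. Of 7 miRNAs of pluripotent cells, 5 were detected on no array, and the summed signal of the list was higher after knockdown, at 72.7 and 80.9 beside 31.4 and 38.7 in control cells. The part of this list in the results was not tested.

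Before any scaling between arrays, all 6 members gave less signal in RBM3 knockdown cells than in control cells, on each knockdown array against each control array. Of the 6, miR-195 and miR-497 were not detected on every array, and the order of miR-497, detected on control arrays alone, carries no support. For the other 4 members the like reference is the 130 miRNAs detected on every array, of which 87.7% showed the same order. The direction was thus that of most miRNAs. Values are total signals of a miRNA's probes in arbitrary intensity units, and each is given with the spread of its pair of arrays.

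The chromosome 14 and chromosome 3 members were detected on every array. miR-16 gave 2204 and 2509 in control cells and 389 and 382 in knockdown cells, with group means of 2357 ± 215.6 and 386 ± 4.64 (SD, n = 2). miR-15b gave 1166 and 1310 in control and 194 and 189 in knockdown cells, or 1238 ± 102 and 192 ± 3.61. miR-15a gave 673 and 765 in control and 165 and 165 in knockdown cells, or 719 ± 65.1 and 165 ± 0.340. In each of these the groups were far apart compared with the gap inside a group, and both control arrays kept one order, with the array of control replicate 2 above that of replicate 1.

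The chromosome 11 pair was dim. miR-195 gave 78.4 and 86.4 in control and 15.6 and 17.3 in knockdown cells, or 82.4 ± 5.64 and 16.4 ± 1.19, and was detected on both control arrays but on only 1 of the 2 knockdown arrays. miR-497 gave 85.3 and 98.3 in control and 14.8 and 14.3 in knockdown cells, or 91.8 ± 9.22 and 14.5 ± 0.341. The scanner software called it present in both control samples and in neither knockdown sample. The error that the scanner software gave for miR-497 on the knockdown arrays was 5.71 and 5.13, so its signals there were known only to within about that much. Undetected names reached 21.2 and 19.2 on the knockdown arrays. The measured ratio of control to knockdown before scaling was 6.31 for miR-497, but with a knockdown level not well above background it sets neither a value nor a firm limit. For miR-195 the corresponding ratio was 5.01, with 1 knockdown array flagged as detected. Its signal there, 17.3, was still below the 19.2 that undetected names reached on that array. The scanner error of miR-195 on the knockdown arrays was 5.73 and 5.21, so its ratio is not firm either.

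The X-linked member stood apart. miR-322 gave 421 and 492 in control cells and 226 and 238 in knockdown cells, with means of 456 ± 49.8 and 232 ± 8.78 (SD, n = 2). It was detected on every array, and its groups did not overlap, although they lay closer together in proportion than those of any other member.

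**Figure D1:**
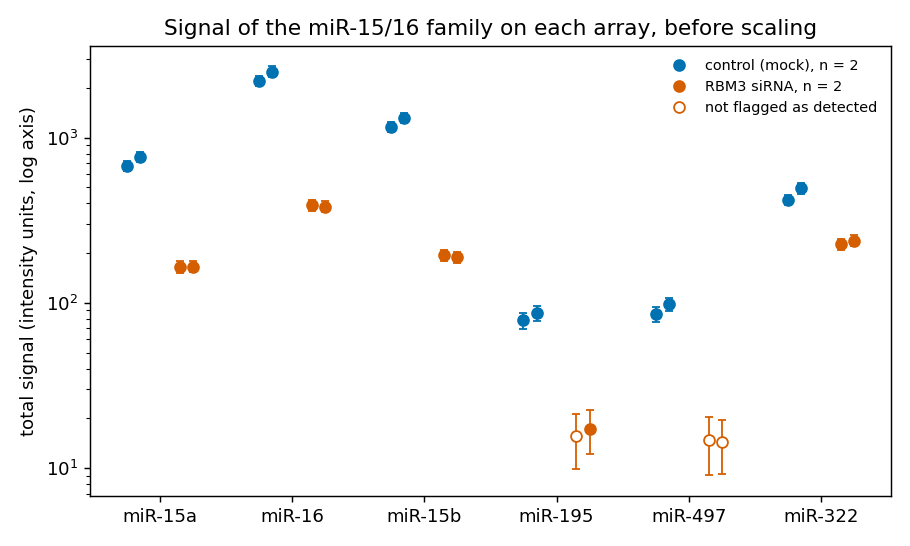
Total signal of each member before scaling (intensity units, log axis) on the 2 control and 2 knockdown arrays; each point is an array, bars are the error given by the scanner software, and open points were not flagged as detected. The control points lie above the knockdown points for all 6 members, by the smallest distance for miR-322, where 421 and 492 stand above 226 and 238.

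As a share of the control signal, the knockdown signal before scaling was 15.5% for miR-15b, 15.8% for miR-497, 16.4% for miR-16, 19.9% for miR-195, 23.0% for miR-15a and 50.8% for miR-322. Taking each knockdown array over each control array, the share ran from 14.5% to 16.7% for miR-15b, from 14.5% to 17.3% for miR-497 and from 15.2% to 17.7% for miR-16, so these 3 overlapped. miR-195, at 18.0% to 22.0%, overlapped miR-15a, at 21.5% to 24.6%. miR-322, at 45.9% to 56.5%, overlapped no other member. These ranges leave out the scanner error. On the knockdown arrays it was 5.71 and 5.13 for miR-497, beside signals of 14.8 and 14.3. For miR-195 it was 5.73 and 5.21, beside 15.6 and 17.3. The places of miR-497 and miR-195 among the other members are therefore not firm.

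The changes were tested with limma on log2 of the total signal plus 20, after scale normalization, with Benjamini-Hochberg adjustment over all 214 mouse miRNAs detected on at least 1 array. A log2 change on this scale understates the change of dim miRNAs, since the offset of 20 is large beside signals such as those of miR-195 and miR-497. In this fit all 6 members were lower after knockdown, against 77.1% of all miRNAs tested, and each of the 6 had a positive change under at least 1 other scaling, miR-15b only under scale normalization of values without the offset. miR-15b fell by 2.35 on the log2 scale (SE 0.0999, adjusted p = 9.71e-10), and miR-16 fell by 2.31 (SE 0.0999, adjusted p = 9.71e-10). miR-15a fell by 1.79 (adjusted p = 2.53e-09), miR-497 by 1.55 (adjusted p = 1.0e-08) and miR-195 by 1.35 (adjusted p = 3.31e-08). miR-322 fell by 0.72 (SE 0.0991, adjusted p = 1.66e-05). The median change of the 6 members was -1.67, beside -1.22 over all 214 miRNAs. miR-497 passed the detection filter only through the control arrays, where it was high. Its call, and its place in this and every later count or median that includes it, therefore carry no support. For the 4 members detected on every array the median was -2.05, beside -1.70 over the 130 such miRNAs, of which 85.4% were lower in a fit of those alone. These p-values rest on a variance pooled over all miRNAs, since the fit leaves 1 residual degree of freedom per miRNA.

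Relative to that median of -1.70, the members spread to both sides. miR-15b lay 0.66 below it and miR-16 0.61 below it, as the 8th and 10th most negative of the 130. miR-15a was close to it, at -0.09 and rank 55. miR-322 lay 0.98 above it, at rank 103, with a change less negative than that of 78.5% of the 130. Without the offset and without scaling, the ranks were 13 for miR-15b, 19 for miR-16, 72 for miR-15a and 105 for miR-322.

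The direction of the calls depended on how the arrays were aligned, as the knockdown arrays were dimmer throughout. With no scaling of the same log2 values, the changes ran from -2.57 for miR-15b to -0.92 for miR-322, all 6 lower, against 78% of all miRNAs lower in that fit. When the positive control probes set the centre of each array, 5 members were lower and miR-322 was higher, at 0.18 (adjusted p = 0.0476 from limma), beside 113 lower (52.8%) and 76 higher (35.5%) among all 214, where scale normalization gave 165 lower and 38 higher. When each array was set to the 75th percentile of the 130 detected miRNAs, 2 members were lower, miR-15b at -0.46 (adjusted p = 0.00537 from limma) and miR-16 at -0.44 (adjusted p = 0.00672 from limma), and 3 were higher, miR-322 at 1.19, miR-195 at 0.62 and miR-497 at 0.41. That centring removes the common fall by construction and gave 21 lower (9.81%) and 140 higher (65.4%) among the 214. Quantile normalization gave 4 members lower and miR-322 higher, at 1.04 (adjusted p = 0.0164 from limma), beside 103 lower and 51 higher among all 214. The counts of 6, 5 and 4 members lower and of 3 higher include miR-497, whose call carries no support. miR-322 lay above the other 5 members in each of 12 treatments of the signal. Of these, 4 shift whole arrays and so share one order by construction, which leaves 9 distinct treatments of the same 4 arrays.

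**Figure D2:**
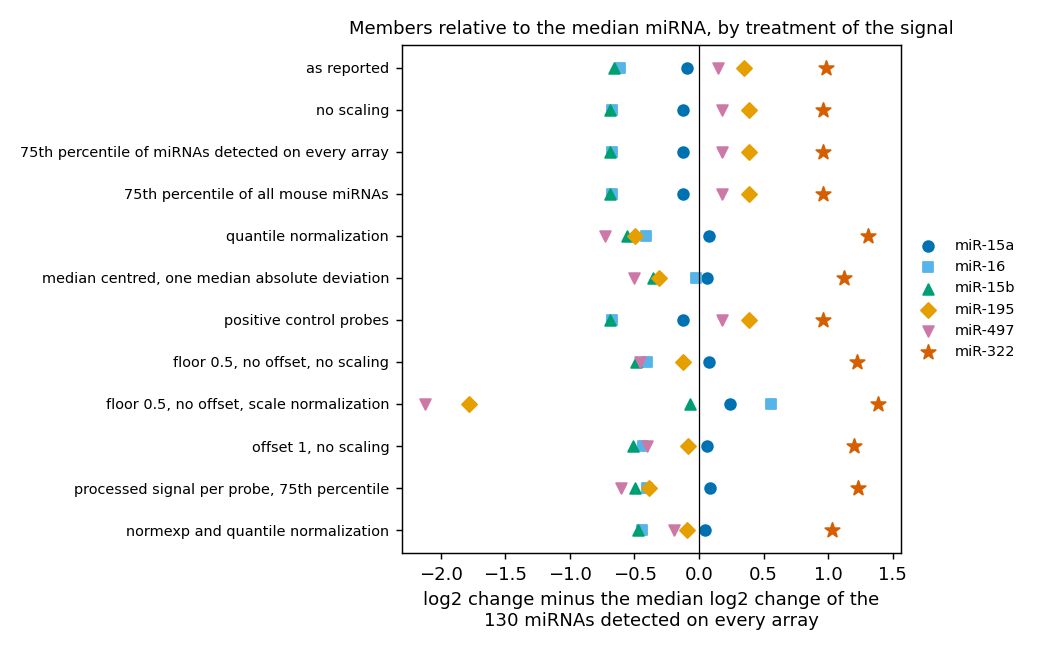
Log2 change of each member minus the median log2 change of the 130 miRNAs detected on every array, for 12 treatments of the signal (as reported is scale-normalized log2 of signal plus 20). miR-322 (star) is the rightmost member in every row, at 0.98 as reported, while miR-15b and miR-16 lie left of zero or near it except where miR-16 is at 0.56 in the row of scale normalization without the offset.

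To compare members from different loci, the log2 difference of 2 members was taken within each array, on the scale-normalized values. A shift of the whole array does not move this quantity, but scale normalization, which multiplies each array by its own factor, does. The 6 members make 15 pairs, 12 of them from different loci, and the 2 groups did not overlap in any of the 15. Over all pairs of the 214 miRNAs tested, 93.6% did not overlap either, so the lack of overlap is not particular to the family. The exact two-sided permutation test gave p = 0.333 for every pair (also 0.333 after Benjamini-Hochberg adjustment over the 15), the smallest that 2 against 2 arrays can give, so no pair could pass. miR-322 differed most from miR-15b. In control cells the scale-normalized log2 value of miR-15b minus that of miR-322 was 1.42 and 1.36. In knockdown cells it was -0.20 and -0.31, a difference of change of 1.64 (pooled SD 0.0616 within groups). For miR-16 and miR-322 the difference was 1.60 (pooled SD 0.0541), and for miR-15a and miR-322 it was 1.08 (pooled SD 0.0393). For the dim pair it was 0.84 with miR-497 and 0.63 with miR-195 on this scale, where the offset narrows their change; without offset and scaling, the changes of miR-497, miR-195 and miR-322 were -2.66, -2.33 and -0.97.

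In the scale-normalized values, members from the same place were not always closest. miR-15b and miR-16, which share the Smc4 locus, differed in change by only 0.042 (pooled SD 0.00784). miR-15a and miR-16, which share the Dleu2 locus, differed by 0.52 (pooled SD 0.0150). For miR-15a and miR-15b, the closest in sequence of the brighter members, the difference was 0.56 (pooled SD 0.0224). This order did not hold under every scaling. Centred on the median and scaled to a common median absolute deviation, miR-15a was at 0.14, miR-16 at 0.061 and miR-15b at -0.27. There miR-16 lay closer to miR-15a than to miR-15b. The 2 probes of miR-15b disagreed by 0.22, more than the 0.042 between miR-15b and miR-16. miR-195 and miR-497 differed by 0.20 on the offset scale, with a pooled SD of 0.0517. Without offset and scaling they changed by -2.33 and -2.66. The 2 probes of miR-195 disagreed by 0.46 and those of miR-497 by 0.24. Both members were near background on the knockdown arrays and the call of miR-497 carries no support, so their difference is not firm.

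Each member was read by 2 probes of 10 spots each, and both probes of each member were dimmer on the knockdown arrays. For miR-322 the mean processed signal went from 291 to 153 on one probe and from 376 to 196 on the other, log2 changes of -0.93 and -0.94 before scaling. For miR-16 both probes changed by -2.57 and -2.56, although one was brighter, at 2278 against 1165 in control cells. The probes of miR-15a changed by -2.09 and -2.05. The largest disagreement was for miR-195, with -2.62 and -2.16, where the dimmer probe averaged 6.83 on the knockdown arrays. The smaller change of miR-322 was thus seen with both of its probes, and the disagreement between them was 0.0092, beside 0.46 for miR-195.

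The other miRNAs of the X-linked transcript were examined from a list of 11 names, of which the array carried 10 and 6 were tested. Of the 4 detected on every array, 3 were lower in the scale-normalized fit and none was higher. Of the 130 such miRNAs 85.4% were lower in a fit of those alone, and of all miRNAs tested 77.1%. The changes were -1.07 for miR-542-3p, -0.94 for miR-450a-5p, -0.22 for miR-503 and -0.12 for miR-322*. Their median was -0.58, against -1.70 over the 130. The offset narrows the change of miR-322*, whose signals were near background, and so makes this median less negative. Without offset and scaling miR-322* changed by -1.62. The 3 calls turned with the scaling: the change was positive in 8 alternative settings for miR-503, in 6 for miR-450a-5p and in 4 for miR-542-3p. miR-503, the adjacent relative of miR-322, gave 144 and 165 in control and 112 and 113 in knockdown cells, so that 72.9% of the control signal was left. Its change of -0.22 just passed (SE 0.0997, adjusted p = 0.0487 from limma). The call was lost when control replicate 2 was left out (-0.17, adjusted p = 0.108 from limma), without a detection filter, or without the offset, and centring on the positive control probes turned it to 0.71 (adjusted p = 0.00181 from limma). miR-450a-5p gave 356 and 399 in control and 164 and 159 in knockdown cells, or 42.8% of control. miR-542-3p gave 123 and 141 in control and 43.2 and 46.1 in knockdown cells, or 33.8%. Over single arrays the lowest share among these 3 was 30.7%, for miR-542-3p, and the highest among the family members other than miR-322 was 24.6%, for miR-15a.

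The other products of the transcript were near background. miR-542-5p went from a mean of 29.6 to 8.92, or 30.1% of control, and miR-351 from 16.5 to 1.79, or 10.9%, both detected in control cells alone, so that they passed the filter only where they were high, and both with a log2 change of -0.65 on the offset scale. miR-322*, the other arm of the miR-322 hairpin, was recorded as detected on every array but had signals of only 1.01 to 7.93 and its change of -0.12 did not pass (adjusted p = 0.296 from limma). The remaining 4 names, miR-503*, miR-450a-3p, miR-450b-3p and miR-450b-5p, were detected on no array.

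**Figure D3:**
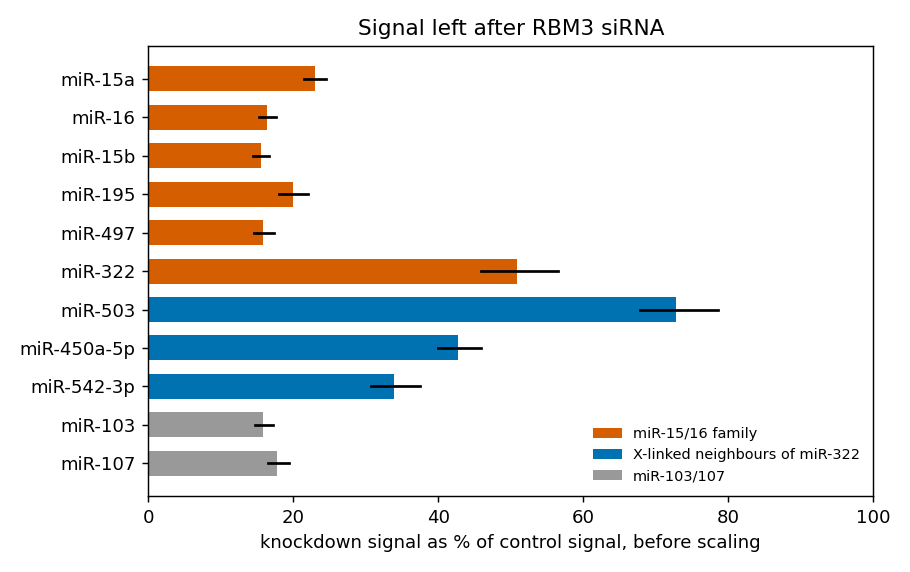
Mean knockdown signal as a percentage of mean control signal before scaling; bars start at 0 and black lines span the ratios of each of 2 knockdown arrays to each of 2 control arrays. miR-322 at 50.8% and its neighbours miR-503, miR-450a-5p and miR-542-3p at 72.9%, 42.8% and 33.8% lie to the right of the other 5 family members, at 15.5% to 23.0%, and of miR-103 and miR-107.

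**Figure D4:**
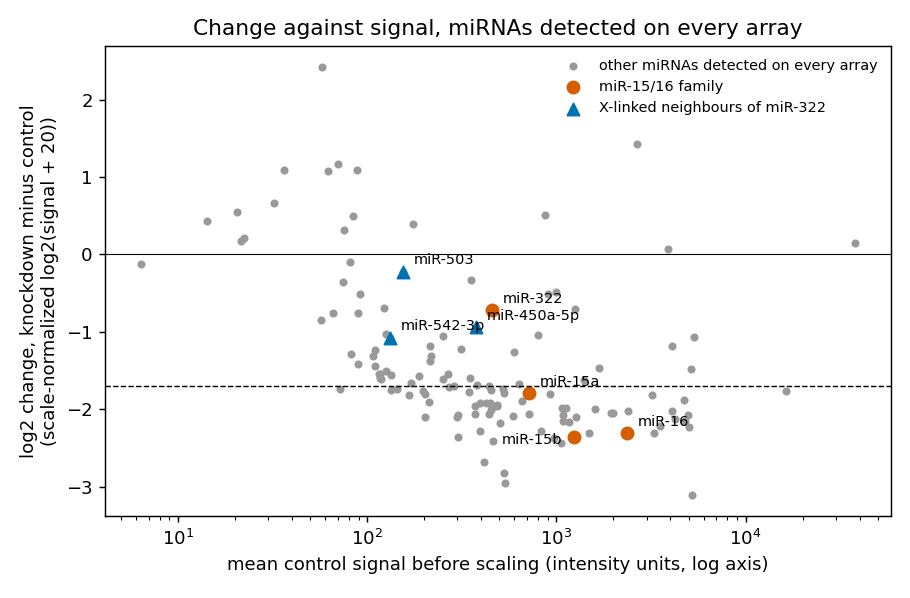
Log2 change (scale-normalized log2 of signal plus 20) against mean control signal before scaling (log axis) for the 130 miRNAs detected on every array; the dashed line is their median, -1.70, and most lie below 0 under this scaling but not under centrings on the detected miRNAs. miR-15b and miR-16 lie near the lower edge, while miR-322, miR-503, miR-450a-5p and miR-542-3p lie above the dashed line at control signals between 132 and 456.

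Since the study dealt with processing of precursors, the hairpins of the X-linked pair and of the chromosome 3 pair are shown with the 5′ arm, the mature miRNA measured here, in capitals. In the scale-normalized fit miR-322 and miR-503 fell less than miR-15b. The change of mature miR-16 cannot be assigned to Mir16-2, since Mir16-1 gives the same sequence.
Mir322: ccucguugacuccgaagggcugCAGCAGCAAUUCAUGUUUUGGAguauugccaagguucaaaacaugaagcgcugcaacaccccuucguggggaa
Mir503: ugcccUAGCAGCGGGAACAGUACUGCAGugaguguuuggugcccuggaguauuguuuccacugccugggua
Mir15b: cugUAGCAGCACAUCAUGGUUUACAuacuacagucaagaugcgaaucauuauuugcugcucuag
Mir16-2: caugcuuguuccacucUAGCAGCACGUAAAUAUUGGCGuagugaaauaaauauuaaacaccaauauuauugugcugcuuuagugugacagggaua
These are RefSeq sequences of chrX:53054255-53054349 and chrX:53053984-53054054 on the minus strand and of chr3:69009772-69009835 and chr3:69009902-69009996 on the plus strand. The terminal loop between the annotated arms was 16 bases in Mir322 and also 16 in Mir15b. It was 18 bases in Mir503 and Mir497, 17 in Mir195a and 20 in both Mir16-1 and Mir16-2. Any part of loop length in the changes was not tested.

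miR-103 and miR-107, which carry the shifted seed and are known to repress Dicer, were both lower in the same fit. miR-103 gave 767 and 891 in control and 132 and 131 in knockdown cells, or 15.8% of control, and fell by 2.28 on the log2 scale (adjusted p = 9.71e-10 from limma). miR-107 gave 548 and 635 in control and 106 and 104.4 in knockdown cells, or 17.8%, and fell by 2.09. Of 17 other miRNAs listed as acting on the cell cycle, 12 were detected on every array and all 12 were lower in the scale-normalized fit, with a median change of -2.05, while miR-449a, miR-449b and miR-449c were detected on no array. Among them miR-93, a relative of miR-17, fell by 2.44 and the p53 target miR-34a fell by 1.81. The like reference for those 12 is the 130 miRNAs meeting the same detection requirement. In a fit restricted to that set, 111 (85.4%) were called lower, and its median change was -1.70. The share of all tested miRNAs called lower was 77.1%.

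The miRNAs whose profile over the 4 arrays was nearest to the mean of the 4 members detected on every array were miR-98, miR-34a and miR-27a, at Euclidean distances of 0.0407, 0.0411 and 0.0572 in centred log2 values. miR-98 gave 324 and 366 in control and 71.7 and 75.5 in knockdown cells. miR-34a gave 848 and 1004 in control and 211 and 214 in knockdown cells, and miR-27a gave 3023 and 3401 in control and 766 and 734 in knockdown cells. With 2 groups of 2 arrays the likeness rests mostly on a similar change, -1.78 for miR-98, -1.81 for miR-34a and -1.82 for miR-27a.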

How the data were processed

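RNA was isolated by the authors with a mirVana kit, labelled with Cy3 and hybridized to mouse miRNA arrays, which they scanned and read with Feature Extraction 10.1.1.1. Per the file headers, the deposited scanner files hold intensity values without scaling between arrays: a background-subtracted processed signal per spot and a total signal with a detection flag per miRNA. The deposited value table equals that total signal plus 20, within 2.3e-13. The methods name scale normalization, a filter on detection and a paired limma fit. Here log2 of the total signal plus 20 was scale-normalized over 567 mouse miRNAs (limma 3.58.1, R 4.3.3), with factors of 0.993, 0.984, 1.01 and 1.01 for the 2 control and 2 knockdown arrays; the 214 miRNAs detected on at least 1 array entered limma's lmFit and eBayes, blocked on replicate number as in the methods' paired model, and p-values were adjusted by Benjamini-Hochberg (threshold 0.05). Named were the 6 members, the related lists and the 3 nearest profiles. Members and lists were chosen with earlier results of these data known. Alternatives were other scalings (a floor of 0.5, an offset of 1 and normexp with an offset of 50 among them), other filters, no block, and each array left out; a crossed block was added after the data were seen. The fit was tested on simulated data. Sequences are from the RefSeq miRNA table of GRCm38.p6. Having 4 arrays limits the precision.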

Additional observations from a re-analysis of the deposited data

How the results depend on the processing

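All 6 members kept their direction and call with no scaling, with the 75th percentile of all mouse miRNAs, with the floor or the offset of 1 and no scaling, with the deposited values, with no detection filter, without the replicate block and with each array left out, and so did the 4 members that entered with detection on every array. The call of miR-497 among these carries no support, since it passed the detection filter only through the control arrays. The calls in other scalings did not all hold. With the 75th percentile of the detected miRNAs, miR-15a was at 0.11, miR-195 at 0.62, miR-322 at 1.19, miR-497 at 0.41, miR-503 at 1.71, miR-450a-5p at 0.98, miR-542-3p at 0.88, miR-98 at 0.14, miR-34a at 0.088 and miR-27a at 0.039, with 2 members lower, 3 higher and a median of 0.26. Centred on the median and scaled to one median absolute deviation, miR-15a was at 0.14, miR-16 at 0.061, miR-195 at -0.22 (not called), miR-322 at 1.21, miR-503 at 1.33, miR-450a-5p at 0.87, miR-542-3p at 0.28, miR-34a at 0.24 and miR-27a at 0.78, with 2 members lower, 1 higher and a median of -0.081. Quantile normalization put miR-15a at -0.20 (not called), miR-322 at 1.04, miR-503 at 1.15, miR-450a-5p at 0.67, miR-34a at 0.011 and miR-27a at 0.065, with 1 member higher and a median of -0.72. Centring on the positive control probes put miR-322 at 0.18 and miR-503 at 0.71, with 1 member higher and a median of -0.74. The processed signal per probe put miR-15a at -0.25 (not called), miR-322 at 0.90, miR-503 at 1.40, miR-450a-5p at 0.65 and miR-542-3p at 0.29, with 1 member higher and a median of -0.73. Normexp with quantile normalization put miR-15a at -0.17 (not called), miR-322 at 0.81, miR-503 at 0.78 and miR-450a-5p at 0.45, with 1 member higher and a median of -0.36. The 75th percentile of all mouse miRNAs put miR-503 at 0.25, with a median of the members of -1.20. Scale normalization of values with a floor of 0.5 and no offset, which multiplies log2 values by unequal factors, gave 2.51 for miR-15a, 2.20 for miR-15b, 2.83 for miR-16, 0.49 for miR-195, 3.66 for miR-322, 0.15 for miR-497, 3.47 for miR-503, 3.18 for miR-450a-5p, 1.88 for miR-542-3p, 1.93 for miR-103, 1.88 for miR-107, 1.78 for miR-98, 2.72 for miR-34a and 3.75 for miR-27a, with 0 members lower, 4 higher and a median of 2.36. The median of the members was -1.84 with no scaling, -2.47 with the floor and no scaling, -2.42 with an offset of 1 and -2.05 with detection on every array.

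Over all 214 miRNAs the counts lower and higher were 165 and 38 as reported, 137 and 48 with the 75th percentile of all mouse miRNAs, 54 and 96 with one median absolute deviation, 19 and 131 with the floor and scale normalization, 90 and 69 with the processed signal per probe and 86 and 44 with normexp. The median change over them moved from -1.22 to between -2.16 and 1.90 over these treatments. Each array left out, without the block, gave -2.39 to -2.32 for miR-15b and -0.78 to -0.65 for miR-322, with adjusted p at most 0.00229 for any member. The difference of change between miR-322 and another member kept its sign in all 17 settings, from 0.98 to 1.23 with miR-15a, 1.46 to 1.86 with miR-15b and 0.83 to 1.72 with miR-16. It moved most for the dim members, from 0.57 to 3.17 with miR-195 and from 0.78 to 3.51 with miR-497.

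Deviations of arrays with one replicate number were negatively correlated (r = -0.330 over miRNAs), so the pairing rests on the methods alone. Without the replicate block 164 miRNAs were lower and 39 higher, and the changes of the members were the same, -2.35 for miR-15b and -0.72 for miR-322. With the replicate numbers crossed, 164 were lower and 40 higher. Signals of miR-195 and miR-497 near background on the knockdown arrays limit what can be said of their change.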

Other observations

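Of 6 passenger strand names listed, the array carried 4, and miR-15a* and miR-16* were detected on no array, while miR-322* was recorded as detected on every array, at 1.01 to 7.93. miR-15b* was detected on both control arrays, at 15.9 and 15.7, and on neither knockdown array, at 4.28 and 4.19. It passed the detection filter only through the control arrays, where it was high, so no test of it is given.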
